A study of Homo sapiens with 12 samples.

Results

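Expression of 8 genes of cholesterol synthesis and its control was followed in 2 human metastatic melanoma cell lines, LOX-IMVI BR and A375, after exposure to a compound directed at telomerase. The genes were SREBF2, INSIG1, HMGCS1, IDI1, FDPS, FDFT1, SQLE and LSS. They were taken by symbol from the deposited table of raw RNA-seq counts, in which all 8 were found among 75253 rows. Each line was given 6-thio-dG at 5 µM, a nucleoside analogue that is built into telomeres by telomerase, with BIBR1532 at 25 µM, which inhibits telomerase, or with a control. Each of the 6 groups, LOX-IMVI BR with 6-thio-dG, BIBR1532 or control and A375 with 6-thio-dG, BIBR1532 or control, held 2 libraries labelled as biological replicates, 12 in all. Nothing in the labels says whether these came from separate cultures, so p-values measure the spread between libraries only. That spread was estimated over all 12 libraries together. Replicates varied by 25.8% over both lines, 4.55% in LOX-IMVI BR alone and 36.1% in A375 alone. Tests in LOX-IMVI BR thus carry in part the wider spread of A375, and tests in A375 a spread narrower than its own. The labels give neither the meaning of BR nor the vehicle and the exposure time. Each line is a single established line in culture, so the values describe these 2 lines.

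Cells make cholesterol from acetyl-CoA through mevalonate, farnesyl diphosphate, squalene and lanosterol, and the same route feeds the prenylation of proteins, ubiquinone and dolichol. SREBF2 encodes SREBP2, the membrane-bound transcription factor that turns these enzymes on. When sterol is ample, SREBP2 and its escort SCAP are held in the endoplasmic reticulum by INSIG proteins; when it is scarce, they move to the Golgi, where the proteases encoded by MBTPS1 and MBTPS2 free the active part. The active part also raises SREBF2 and INSIG1 themselves.

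SREBP2 target promoters usually pair a sterol regulatory site with a CCAAT box or a GC box. The RefSeq promoter table (GRCh38.p14, windows of 250 bases before to 50 bases after a start site) held 9 windows for 6 of the 8 genes, namely SREBF2, INSIG1, LSS and FDPS with 1 each, HMGCS1 and IDI1 with more. The windows of 4 genes lower in LOX-IMVI BR with 6-thio-dG are shown because their transcripts are among the 5 that passed the test. Capitals mark the letters TCACNCCAC, a form of the sterol regulatory site, and CCAAT, each searched on both strands, so that ATTGG is a CCAAT box on the other strand. The SREBF2 window is chr22:41832855-41833154 on the plus strand, that of INSIG1 chr7:155297628-155297927 on the plus strand, that of FDPS chr1:155308616-155308915 on the plus strand and that of LSS chr21:46228725-46229024 on the minus strand.
SREBF2: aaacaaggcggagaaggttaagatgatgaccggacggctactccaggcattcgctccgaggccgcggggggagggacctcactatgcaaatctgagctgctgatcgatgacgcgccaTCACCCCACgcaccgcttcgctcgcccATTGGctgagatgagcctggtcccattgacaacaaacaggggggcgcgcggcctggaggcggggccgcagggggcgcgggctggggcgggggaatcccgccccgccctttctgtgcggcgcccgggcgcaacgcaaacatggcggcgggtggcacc
INSIG1: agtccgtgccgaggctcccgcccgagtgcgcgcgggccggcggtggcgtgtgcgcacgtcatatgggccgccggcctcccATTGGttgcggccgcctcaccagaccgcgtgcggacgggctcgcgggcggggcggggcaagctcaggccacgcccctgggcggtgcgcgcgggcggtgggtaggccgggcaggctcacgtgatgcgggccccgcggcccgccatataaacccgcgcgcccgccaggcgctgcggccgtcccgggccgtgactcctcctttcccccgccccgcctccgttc
FDPS: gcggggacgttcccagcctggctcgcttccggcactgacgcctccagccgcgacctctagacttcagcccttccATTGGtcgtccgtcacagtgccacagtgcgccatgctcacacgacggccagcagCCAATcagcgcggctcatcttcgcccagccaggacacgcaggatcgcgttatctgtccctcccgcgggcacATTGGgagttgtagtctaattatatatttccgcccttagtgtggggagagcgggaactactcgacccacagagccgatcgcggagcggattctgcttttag
LSS: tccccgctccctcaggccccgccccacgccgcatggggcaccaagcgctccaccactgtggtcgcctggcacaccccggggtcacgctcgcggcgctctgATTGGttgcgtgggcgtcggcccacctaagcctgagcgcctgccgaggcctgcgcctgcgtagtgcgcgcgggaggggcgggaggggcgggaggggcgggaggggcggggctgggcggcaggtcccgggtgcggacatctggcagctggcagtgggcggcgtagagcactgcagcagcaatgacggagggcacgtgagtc

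The letters TCACNCCAC were found in 1 of the 9 windows, that of SREBF2, at position -133 counted from the start site. They occur in 396 of all 35116 promoter windows, or 1.13%. A CCAAT box was found in 7 of the 9 windows and in all 6 genes, where 34.6% of all windows hold it. The GC box GGGCGG, searched on both strands, was found in all 9 windows, where 45% of all windows hold it. In 1 IDI1 window a CCAAT box on each strand shares letters with the other. A match describes the sequence only, and its absence says only that these letters are not in this window.

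Depth ranged from 11813413 to 25822566 counts per library. Replicate libraries of LOX-IMVI BR lay close together, and those of A375 stood apart: the log2 difference of a gene between replicates had a median size of 0.131 with 6-thio-dG, 0.199 with BIBR1532 and 0.13 in the control of LOX-IMVI BR, and 0.689, 0.214 and 0.628 in the same order in A375. Every member had enough counts to be tested. The labelled cell type was checked on melanocyte-lineage markers. SOX10, the lineage's transcription factor, stood at 0.592 CPM (counts relative to the library total as scaled by TMM, the trimmed mean of M-values) in the control of LOX-IMVI BR and 551 CPM in that of A375, and the pigment gene TYR had no counts in the control of either line. Dedifferentiated-melanoma markers were present in both controls, AXL at 435 CPM in LOX-IMVI BR and 1523 CPM in A375. Among markers of other cell types, EPCAM, CDH1, PECAM1 and CD3E had group means of 0.44 CPM or lower in all 6 groups, while the lysosomal leukocyte marker CD68 stood between 92.3 and 858 CPM and the keratin KRT10 between 59.8 and 238 CPM. The 3 leukocyte markers, nearly all of it CD68, summed to between 732 and 984 CPM with 6-thio-dG, between 576 and 632 CPM with BIBR1532 and between 173 and 420 CPM in the control of A375. In LOX-IMVI BR they summed to between 115 and 132 CPM with 6-thio-dG, between 210 and 222 CPM with BIBR1532 and between 92.4 and 92.5 CPM in the control. PTPRC, the marker common to leukocytes, was at 1.84 CPM in LOX-IMVI BR with 6-thio-dG, against 0.144 CPM in its control. In the other groups it was at 0.184 CPM or lower. In LOX-IMVI BR, 9 melanocyte markers summed to between 10.7 and 13.2 CPM with 6-thio-dG and between 10.4 and 10.6 CPM in the control, and 4 fibroblast markers to between 7.14 and 7.28 CPM with 6-thio-dG and between 59.5 and 61.9 CPM in the control, most of it PDGFRA in the control. The 6 dedifferentiated-melanoma markers summed to between 1867 and 1989 CPM with 6-thio-dG and between 4839 and 4916 CPM in the control of LOX-IMVI BR, and to between 454 and 689 CPM with 6-thio-dG and between 2840 and 3152 CPM in the control of A375. With BIBR1532 these 6 markers summed to between 6271 and 6295 CPM in LOX-IMVI BR and between 3688 and 3894 CPM in A375. The 9 melanocyte markers summed to between 26.1 and 27.4 CPM with BIBR1532 in LOX-IMVI BR. In A375 they summed to between 317 and 586 CPM with 6-thio-dG, 1332 and 1496 CPM with BIBR1532 and 579 and 653 CPM in the control. The part of these shifts in the members' values was not tested.

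At the start, 5 of the 8 genes were higher in LOX-IMVI BR than in A375. INSIG1 stood out with 353 and 345 CPM in LOX-IMVI BR controls, against 25.8 and 20.9 CPM in A375 controls, a log2 fold change of 3.90 ± 0.30 (SE; edgeR quasi-likelihood test with Benjamini-Hochberg adjustment over 29114 genes, adjusted p = 9e-08). LSS, which closes squalene epoxide into lanosterol, had 79.5 and 78.6 CPM in LOX-IMVI BR controls, against 12.3 and 18.5 CPM in A375 controls, 2.37 ± 0.34 on the log2 scale (edgeR adjusted p = 4.61e-05). The other 3 were IDI1, HMGCS1 and SQLE, higher in LOX-IMVI BR by 1.66 (edgeR adjusted p = 0.00256), 1.37 (0.0278) and 1.25 (0.00152). Over 12 alternatives they lay between 1.08 and 1.97, 0.68 and 1.64, and 1.19 and 1.30. IDI1 and HMGCS1 are low in GC content (41.1% and 40.2%). Symbol genes of at most 42.2% GC had median deviations from the mean of all libraries of 0.834 and 0.801 in LOX-IMVI BR controls. In A375 controls these were -0.0798 and -0.0704. The part of GC content in the differences was not tested. Of all genes tested, 21.1% were called higher and 49.8% were called in either direction. The median log2 fold change of the 8 genes was 1.31, and that of all genes -0.12.

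SREBF2 itself had 224 and 235 CPM in LOX-IMVI BR controls, against 103 and 166 CPM in A375 controls, and did not pass (0.78 ± 0.31, edgeR adjusted p = 0.0515). It was called higher without a low-count filter (adjusted p = 0.0276), at 1 CPM in 2 libraries (0.0324), with symbol genes only (0.0179) and with the trend on GC content removed from each library (1.44, 2e-05). FDPS and FDFT1 gave -0.63 and -0.17 (edgeR adjusted p = 0.161 and 0.709). Both were split between the A375 control libraries, FDPS at 82.6 and 202 CPM and FDFT1 at 85.5 and 187 CPM, and the LOX-IMVI BR values lay between them. Without A375 control replicate 1, FDPS was lower in LOX-IMVI BR (-1.13, edgeR adjusted p = 0.00346), and without A375 control replicate 2, SREBF2 was higher (1.17, 0.00754). HMGCS1 was no longer called without any 1 of the 4 control libraries, at adjusted p between 0.0759 and 0.213.

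Set per length of transcript, the order of the members differed between the lines. In LOX-IMVI BR controls INSIG1 had the highest level, 116 ± 1.68 CPM per kb (SD, n = 2), followed by FDPS at 62.1 ± 1.21, FDFT1 at 45.6 ± 1.05, SREBF2 at 42.8 ± 1.45, SQLE at 27.6 ± 0.449, IDI1 at 22.7 ± 0.146, HMGCS1 at 18.3 ± 0.864 and LSS at 16 ± 0.134. Neighbours in this order were further apart than the sum of their SDs. In A375 controls FDPS led at 96.3 ± 57.2 CPM per kb, followed by FDFT1 at 51.3 ± 27.1, SREBF2 at 25 ± 8.35, SQLE at 11.6 ± 0.561, INSIG1 at 7.76 ± 1.15, IDI1 at 7.21 ± 1.08, HMGCS1 at 7.06 ± 1.66 and LSS at 3.12 ± 0.884. INSIG1, IDI1 and HMGCS1 lay within their spread of each other in A375, as did FDPS and FDFT1, and FDFT1 and SREBF2.

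**Figure D1:**
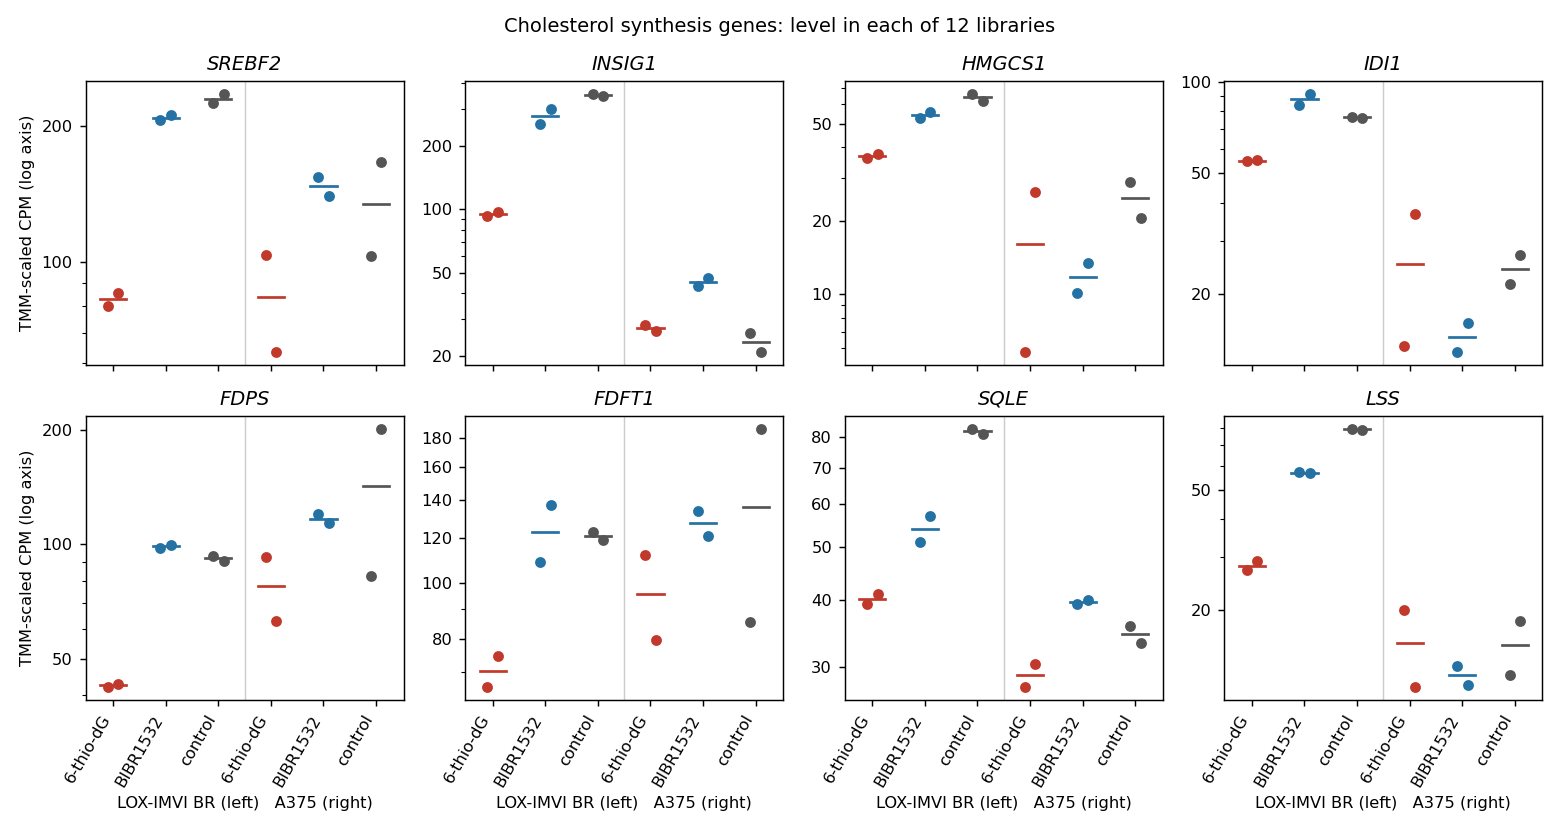
Level of each of the 8 genes in TMM-scaled CPM (vertical log axis, its range set for each gene) in the 12 libraries, by line and treatment; points are libraries and bars are means of 2. In LOX-IMVI BR the 6-thio-dG libraries lie below both control libraries for every gene, INSIG1 at 93.4 and 96.8 CPM against 353 and 345 CPM, while the A375 points of HMGCS1, IDI1, FDPS and FDFT1 are spread widely within groups.

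With 6-thio-dG in LOX-IMVI BR, 5 of the 8 genes fell, and none rose. The regulators fell most with LSS: INSIG1, the retention protein, fell by 72.7%, SREBF2, the transcription factor, fell by 64%, and LSS fell by 64.5%. Of all genes tested, 7.16% were called lower and 17.0% in either direction, and of 8947 symbol-named genes that averaged 10 CPM or more, 12.7% were called lower. The median log2 fold change of the members was -1.07, beside 0.05 over all genes and -0.23 over those 8947.

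INSIG1 had 93.4 and 96.8 CPM with 6-thio-dG, against 353 and 345 CPM in the control, a log2 fold change of -1.88 ± 0.27 (95% interval -2.46 to -1.29, edgeR adjusted p = 0.000427). SREBF2 had 80.1 and 85.5 CPM with 6-thio-dG, against 224 and 235 CPM in the control (-1.47 ± 0.32, edgeR adjusted p = 0.00575). For both genes the treated libraries were close together and far below either control library. In bulk RNA, a change in the share of some cells and a change in RNA per cell cannot be told apart, here or in the comparisons that follow.

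The members at the start of the route did not pass. HMGCS1, which makes HMG-CoA, had 36.1 and 37.6 CPM with 6-thio-dG, against 66.2 and 61.9 CPM in the control (-0.80 ± 0.47, edgeR adjusted p = 0.288). IDI1, which turns isopentenyl into dimethylallyl diphosphate, had 54.9 and 55.4 CPM with 6-thio-dG, against 76.9 and 76.2 CPM in the control (-0.47 ± 0.38, edgeR adjusted p = 0.449). The groups of both genes did not overlap.

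FDPS, which makes farnesyl diphosphate at the branch to the nonsterol products, had 42.1 and 42.9 CPM with 6-thio-dG, against 93.1 and 90.5 CPM in the control (-1.11 ± 0.37, edgeR adjusted p = 0.0497), just past the threshold. It was not called with DESeq2 size factors or at 1 CPM in 2 libraries (adjusted p = 0.0592 in both) or with symbol genes only (0.0877). FDFT1, squalene synthase and the first enzyme given over to sterols, had 65.8 and 74.6 CPM with 6-thio-dG, against 123 and 119 CPM in the control (-0.79 ± 0.35, edgeR adjusted p = 0.143), and did not pass. Reads of FDPS, FDFT1, HMGCS1, IDI1, LSS and SREBF2 can include those of overlapping genes on the other strand, since the library kit does not keep strand. GENCODE (release 29, GRCh38) lists RUSC1-AS1 at FDPS and SREBF2-AS1 at SREBF2, for example, and lists no overlapping gene at INSIG1 or SQLE.

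SQLE, the epoxidase that adds oxygen to squalene, had 39.3 and 40.9 CPM with 6-thio-dG, against 82.8 and 80.9 CPM in the control (-1.03 ± 0.27, edgeR adjusted p = 0.0165). LSS, the next enzyme, had 27.2 and 29 CPM with 6-thio-dG, against 79.5 and 78.6 CPM in the control (-1.49 ± 0.33, edgeR adjusted p = 0.00631). Both 6-thio-dG libraries lay below both control libraries for all 8 genes. That pattern was common in this comparison: 34.8% of all genes and 60.9% of the 8947 well-counted symbol genes had it.

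The calls rest on all 4 libraries. Without any 1 of them, 1 or 2 members were called lower, INSIG1 every time (adjusted p at most 0.0168 over 13 alternatives) and SREBF2 without control replicate 1. The log2 fold changes changed little, for LSS between -1.56 and -1.45, and the adjusted p reached 0.0799 for SREBF2, 0.0872 for LSS, 0.175 for SQLE and 0.237 for FDPS, each without 6-thio-dG replicate 1. In a fit of the LOX-IMVI BR libraries alone, where replicates vary by 4.55% as against 25.8% over both lines, all 8 members were called lower, as were 30.8% of all genes. With upper-quartile scaling, which moved the median of all genes up to 0.28, 3 members were called lower, and FDPS (-0.88) and SQLE (-0.80) were not.

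**Figure D2:**
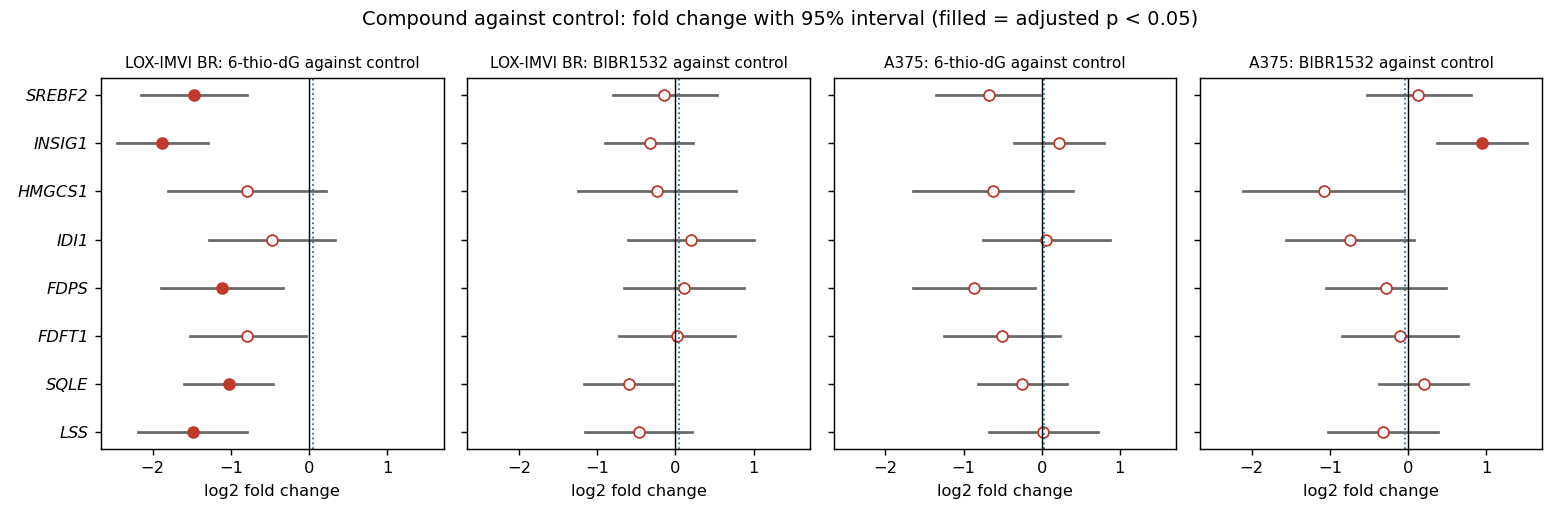
Log2 fold change (horizontal axis) of the 8 genes for each compound against control in each line, with 95% intervals from the edgeR fit; filled points pass an adjusted p of 0.05 and the dotted line is the median of all genes. All 8 points lie below 0 for 6-thio-dG in LOX-IMVI BR, from -1.88 for INSIG1 to -0.47 for IDI1, and 5 are filled, while INSIG1 at 0.95 with BIBR1532 is the filled point in A375.

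In A375, 6-thio-dG moved none of the 8 genes past the threshold, and 2 had an unadjusted p under 0.05 (DESeq2 also called 0). Of all genes, 18.1% were called in this comparison. INSIG1 had 28.2 and 26.4 CPM with 6-thio-dG, against 25.8 and 20.9 CPM in the control (0.22 ± 0.27, edgeR adjusted p = 0.588, 95% interval -0.35 to 0.80). SREBF2 had 104 and 63.3 CPM with 6-thio-dG, against 103 and 166 CPM in the control (-0.68 ± 0.31, edgeR adjusted p = 0.14). Its groups overlapped, since 6-thio-dG replicate 1 matched control replicate 1.

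The enzymes varied widely among A375 replicates. HMGCS1 had 5.76 and 26.3 CPM with 6-thio-dG, against 28.9 and 20.6 CPM in the control (-0.62 ± 0.48, edgeR adjusted p = 0.382). IDI1 had 13.5 and 36.9 CPM with 6-thio-dG, against 21.7 and 26.9 CPM in the control (0.06 ± 0.38, edgeR adjusted p = 0.934). The 6-thio-dG replicates of IDI1 lay on either side of the control range, and of those of HMGCS1 replicate 1 lay below it and replicate 2 inside it. FDPS had 92.9 and 62.7 CPM with 6-thio-dG, against 82.6 and 202 CPM in the control (-0.87 ± 0.36, edgeR adjusted p = 0.109). FDFT1, SQLE and LSS gave -0.51, -0.25 and 0.02 (edgeR adjusted p = 0.325, 0.54 and 0.975). The median of the 8 was -0.38, the same as over the 8947 well-counted symbol genes.

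The A375 result depends on single libraries. Without control replicate 1, FDPS (-1.40), SREBF2 (-1.01) and FDFT1 (-0.99) were called lower. Without 6-thio-dG replicate 2, HMGCS1 (-2.12, edgeR adjusted p = 0.000215) and IDI1 (-0.85, 0.021) were called lower, and without 6-thio-dG replicate 1, SREBF2 was (-1.09, 0.029). Differences between the 2 A375 replicates of 6-thio-dG followed the GC content of the transcripts: replicate 1 minus replicate 2 was -2.17 for HMGCS1 and -1.44 for IDI1 on the log2 scale, with GC contents of 40.2% and 41.1%, and 0.83 for LSS and 0.71 for SREBF2, with 58.3% and 57.9%. Symbol genes with a GC content of at most 42.2% had a median deviation from the mean of all libraries of -2.09 in replicate 1 and -0.227 in replicate 2. With the trend on GC content removed from each library, FDPS (-1.02) and SREBF2 (-0.94) were called lower and IDI1 (0.64) higher.

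**Figure D3:**
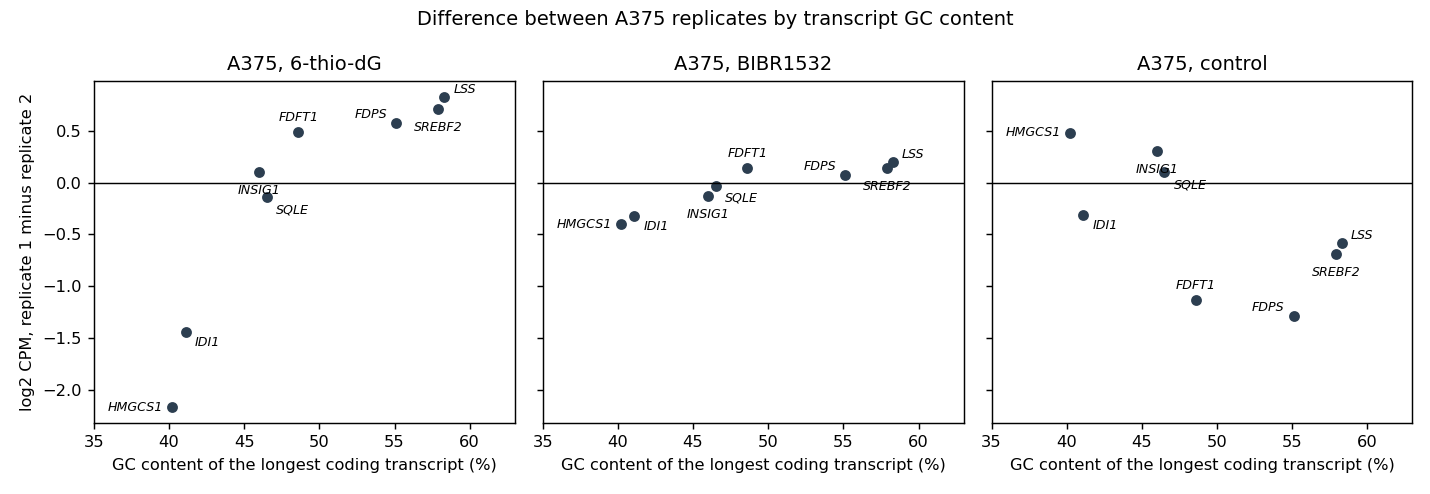
Log2 CPM of replicate 1 minus replicate 2 (vertical axis) in the A375 groups against the GC content of each gene's longest coding transcript in percent (horizontal axis); each point is a gene. With 6-thio-dG the points climb with GC content, from -2.17 for HMGCS1 to 0.83 for LSS, with BIBR1532 they lie between -0.40 and 0.20, and in the control FDPS (-1.29) and FDFT1 (-1.13) are lowest.

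With BIBR1532, INSIG1 rose in A375 and no member passed in LOX-IMVI BR. In A375, INSIG1 had 43.1 and 47.2 CPM with BIBR1532, against 25.8 and 20.9 CPM in the control (0.95 ± 0.27, edgeR adjusted p = 0.0295). The BIBR1532 libraries lay above both controls, as for 29.7% of all genes. Of all genes, 8.49% were called higher there and 15.8% in either direction. The call did not hold in a fit of A375 alone (adjusted p = 0.225), with the replicate number as a block (0.0592), or without either BIBR1532 library (0.167 without replicate 1 and 0.158 without replicate 2), with the log2 fold change between 0.90 and 1.02.

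The synthesis enzymes did not follow INSIG1 past the threshold in A375. HMGCS1 had 10.1 and 13.4 CPM with BIBR1532, against 28.9 and 20.6 CPM in the control (-1.08 ± 0.48, edgeR adjusted p = 0.136). IDI1 had 12.9 and 16.1 CPM with BIBR1532, against 21.7 and 26.9 CPM in the control (-0.74 ± 0.38, edgeR adjusted p = 0.199). For both, the BIBR1532 libraries were below both controls, as for 27.3% of all genes. Both are low in GC content, and symbol genes with a GC content of at most 42.2% had a median deviation of -1.33 and -0.976 in the BIBR1532 libraries, against -0.0798 and -0.0704 in the controls. Neither gene was called before or after the GC trend was removed, and after its removal LSS was called lower (-0.55). Without a low-count filter HMGCS1 was called lower (-1.04, edgeR adjusted p = 0.0347). The part of GC content in these values was not tested. The other 5 members lay between -0.32 for LSS and 0.20 for SQLE. The median of the 8 was -0.19, beside -0.04 over all genes and -0.25 over the 8947 well-counted symbol genes.

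In LOX-IMVI BR with BIBR1532, 0 of 8 members were called by edgeR or DESeq2, and 1 had an unadjusted p under 0.05, among 3.59% of all genes called. That member was SQLE, with 51.1 and 57 CPM with BIBR1532, against 82.8 and 80.9 CPM in the control (-0.60 ± 0.27, edgeR adjusted p = 0.293). LSS had 57 and 56.9 CPM with BIBR1532, against 79.5 and 78.6 CPM in the control (-0.47 ± 0.32, edgeR adjusted p = 0.549). INSIG1 had 253 and 301 CPM with BIBR1532, against 353 and 345 CPM in the control (-0.33 ± 0.26, edgeR adjusted p = 0.631). Both BIBR1532 libraries lay below both controls for SQLE, LSS, INSIG1, SREBF2 and HMGCS1, as for 27.8% of all genes, and above both for IDI1 and FDPS, as for 35.1%. The groups of FDFT1 overlapped. The remaining members had log2 fold changes between -0.24 for HMGCS1 and 0.20 for IDI1. In the fit of LOX-IMVI BR alone, 5 members were called lower, SQLE (-0.65), LSS (-0.53), INSIG1 (-0.39), HMGCS1 (-0.29) and SREBF2 (-0.20), and IDI1 (0.14) was called higher. In that fit 21.8% of all genes were called lower.

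The compounds were then compared with each other in each line, as given, since their doses differ (5 µM and 25 µM). In LOX-IMVI BR, 4 members were lower with 6-thio-dG than with BIBR1532, where 10.7% of all genes were called lower and 20.6% in either direction. INSIG1 had 93.4 and 96.8 CPM with 6-thio-dG, against 253 and 301 CPM with BIBR1532 (-1.54 ± 0.27, edgeR adjusted p = 0.00112). SREBF2 (-1.33, 0.00823), FDPS (-1.22, 0.0286) and LSS (-1.02, 0.037) were the other 3. SQLE, at 39.3 and 40.9 CPM with 6-thio-dG, against 51.1 and 57 CPM with BIBR1532, was not called (-0.43 ± 0.27, edgeR adjusted p = 0.285). Without either 6-thio-dG library, FDPS, LSS and SREBF2 lost the call (adjusted p between 0.0706 and 0.227). Without either BIBR1532 library, FDPS and LSS lost it (0.109 to 0.159), and SREBF2 lost it without BIBR1532 replicate 2 (0.0583).

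In A375, 0 members were called between the compounds by edgeR, among 16.0% of all genes, and 2 had an unadjusted p under 0.05. Those were INSIG1, with 28.2 and 26.4 CPM with 6-thio-dG, against 43.1 and 47.2 CPM with BIBR1532 (-0.73 ± 0.27, edgeR adjusted p = 0.0795), and SREBF2 (-0.82 ± 0.31, 0.0899). DESeq2 called both lower (-0.84, adjusted p = 0.00461, and -0.95, adjusted p = 0.0375). Without 6-thio-dG replicate 1, INSIG1 (-0.79) and SREBF2 (-1.23) were called lower and IDI1 (1.33) and HMGCS1 (1.15) higher. Without 6-thio-dG replicate 2, HMGCS1 (-1.04) was called lower.

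Whether the lines differ in their response was tested directly, as the effect in LOX-IMVI BR minus that in A375. For 6-thio-dG, INSIG1 was the member called, at -2.10 ± 0.38 (95% interval -2.91 to -1.29, edgeR adjusted p = 0.00534), where 3.06% of all genes were called lower and 5.54% in either direction. LSS gave -1.52 ± 0.46 (edgeR adjusted p = 0.0708). The other 6 lay between -0.79 for SREBF2 and -0.17 for HMGCS1, and none of those was called. For LSS and these 6, the effect of 6-thio-dG is thus not shown to differ between the lines. The INSIG1 difference was not called without LOX-IMVI BR 6-thio-dG replicate 1 (-2.06, adjusted p = 0.0566). Without A375 6-thio-dG replicate 2, LSS (-1.89) and SREBF2 (-1.11) were called lower and HMGCS1 (1.31) higher, and without A375 6-thio-dG replicate 1, IDI1 (-1.09) was called lower. LSS was called lower without A375 control replicate 2 (-1.83).

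For BIBR1532, 0 members were called by edgeR in the difference between lines, where 3.64% of all genes were, and 1 had an unadjusted p under 0.05. That was INSIG1, at -1.28 ± 0.38 (edgeR adjusted p = 0.0707), which DESeq2 called (-1.30, adjusted p = 0.00263). It was called without A375 control replicate 1 (-1.45) and without A375 control replicate 2 (-1.14). The comparisons of each compound with control share the control libraries of their line, and the comparisons between compounds share the treated ones, so they are not independent of each other.

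The rest of the pathway was described with 44 further genes in 5 groups, all of them tested. With 6-thio-dG in LOX-IMVI BR, 11 were lower and 1 higher, with a median log2 fold change of -0.42, where 7.16% of all genes were called lower and 17.0% in either direction. Among 13 other synthesis enzymes, 2 were lower and 1 higher (median -0.49). LBR (-1.70) and EBP (-1.06), enzymes of the steps after lanosterol, were lower, and TM7SF2, a sterol reductase like LBR, was higher at 3.33 and 3.79 CPM with 6-thio-dG, against 0.904 and 0.683 CPM in the control (2.16 ± 0.39, edgeR adjusted p = 0.00197).

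Of 8 genes of SREBP control, 4 were lower with 6-thio-dG in LOX-IMVI BR and 0 higher (median -0.68). SREBF1, which encodes the related factor of fatty acid synthesis, had 200 and 193 CPM with 6-thio-dG, against 647 and 653 CPM in the control (-1.73 ± 0.37, edgeR adjusted p = 0.0052). The protease genes MBTPS2 (-1.47) and MBTPS1 (-0.89) and the second retention protein gene INSIG2 (-1.31) were lower too. Of 7 uptake and transport genes, 1 was lower and 0 higher (median -0.52), the lipoprotein receptor gene SCARB1 (-1.14). Of 8 efflux, LXR and esterification genes, 2 were lower and 0 higher (median 0.10). These were ABCA1, the cholesterol exporter (-1.80), and LPCAT3 (-1.24). Of 8 genes of the nonsterol branch, 2 were lower and 0 higher (median 0.22), the farnesyltransferase subunit FNTB (-1.66) and COQ2 of ubiquinone synthesis (-1.29). Without 6-thio-dG replicate 1, 0 of the 44 were called lower, without 6-thio-dG replicate 2, 1 was, and without either control library, 2 were. With upper-quartile scaling, 6 were.

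With BIBR1532 in LOX-IMVI BR, 0 of the 44 were called by edgeR and 5 had an unadjusted p under 0.05, with a median of 0.00, and DESeq2 called 1 of them higher. SREBF1 had 599 and 556 CPM with BIBR1532, against 647 and 653 CPM in the control (-0.17 ± 0.36, edgeR adjusted p = 0.902). Between the compounds in LOX-IMVI BR, 11 of the 44 were lower with 6-thio-dG and 1 was higher, where 10.7% of all genes were called lower and 20.6% in either direction. Of the uptake genes 3 of 7 were lower, SCARB1 (-1.70), NPC1, which moves cholesterol out of lysosomes (-1.41), and the sterol carrier STARD4 (-1.56). LBR (-1.83), HSD17B7 (-1.09), MBTPS2 (-2.05), SREBF1 (-1.55), MBTPS1 (-0.91), ABCA1 (-1.78), LPCAT3 (-1.21) and COQ2 (-1.90) were lower as well. The gene called higher was DHDDS, of dolichol synthesis (0.94). With 1 library of either compound left out, between 3 and 7 were lower and 0 higher.

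**Figure D4:**
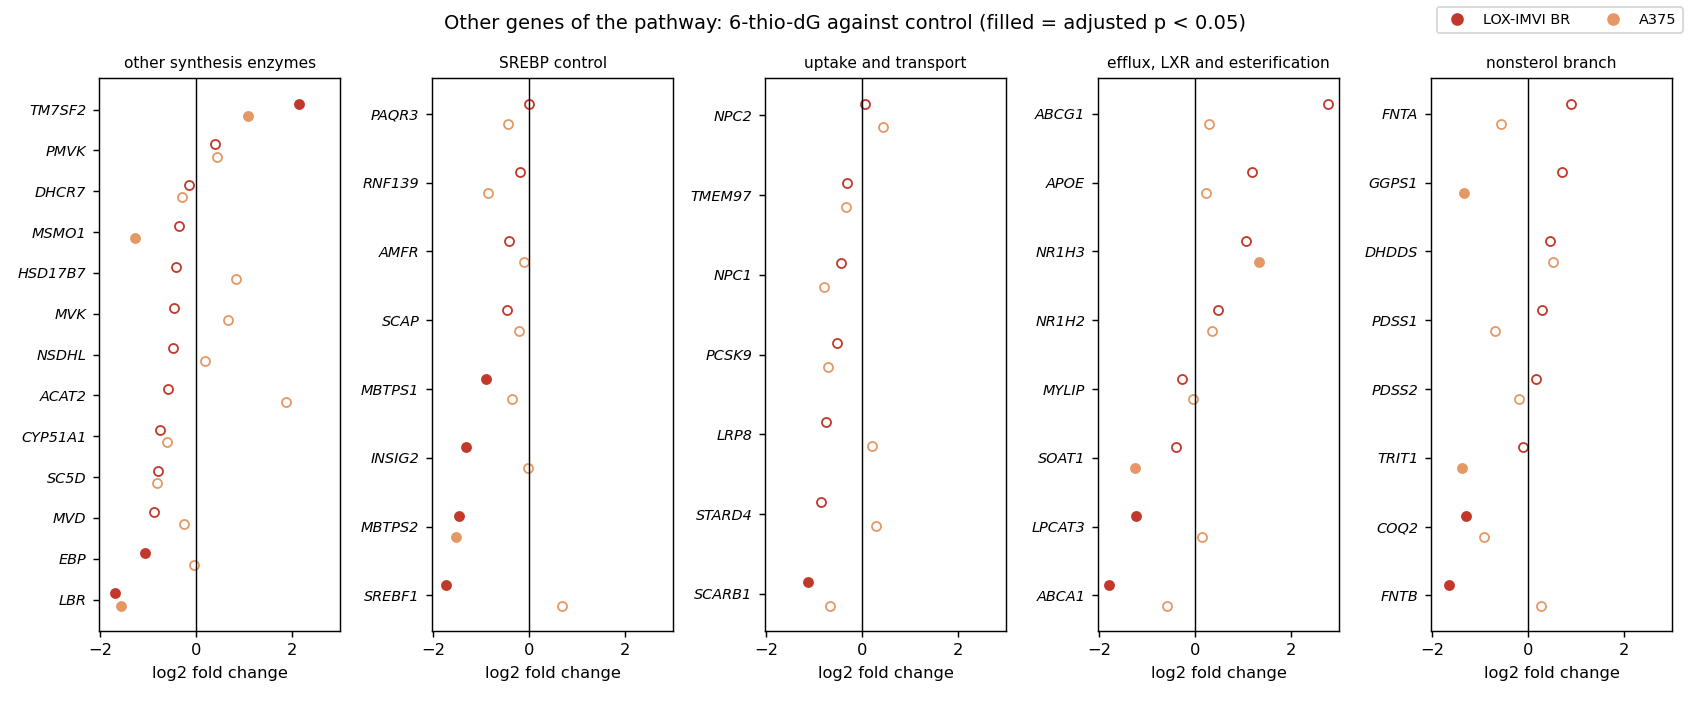
Log2 fold change (horizontal axis) with 6-thio-dG against control of 44 other genes of the pathway in 5 groups, in LOX-IMVI BR (dark) and A375 (light); filled points pass an edgeR adjusted p of 0.05. In LOX-IMVI BR 11 filled points lie below 0, ABCA1 lowest at -1.80, and 1 above, and in A375 6 lie below 0 and 2 above. The value of ABCG1 in LOX-IMVI BR is a fitted one against a control without counts.

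In A375, 6 of the 44 were lower and 2 higher with 6-thio-dG (median -0.20), a share near the 18.1% of all genes called there. The lower ones were LBR (-1.57), MBTPS2 (-1.53), TRIT1 (-1.38), GGPS1, which makes geranylgeranyl diphosphate (-1.33), MSMO1 (-1.28) and the cholesterol esterifying enzyme SOAT1 (-1.25), each lowest in 6-thio-dG replicate 1. TM7SF2 (1.09) and NR1H3, which encodes a liver X receptor (1.33), were higher. Without 6-thio-dG replicate 2, 11 were lower and 5 higher, without control replicate 2, 2 were lower and 4 higher, and in a fit of A375 alone 0 were called. With BIBR1532 in A375, APOE (2.03), a lipid carrier, and HSD17B7 (1.20) were higher and GGPS1 (-1.85) and SC5D (-1.83) lower. Of all genes, 15.8% were called in that comparison. A fit of A375 alone called 1 of the 44 higher and 0 lower with BIBR1532. Between the compounds in A375, SCARB1 (-1.24) and APOE (-1.81) were lower with 6-thio-dG and 0 of the 44 were higher, where 16.0% of all genes were called. Between the compounds, a fit of A375 alone called 0 of the 44 in either direction. With the GC trend removed, 7 were lower and 3 higher.

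The lines also differed at the start in the wider pathway, with 8 of the 44 genes higher and 11 lower in LOX-IMVI BR controls, a smaller share than the 49.8% called over all genes. DHCR7, the last reductase of one route to cholesterol, had 0.502 and 0.774 CPM in LOX-IMVI BR controls, against 41.1 and 85.1 CPM in A375 controls (-6.60 ± 0.50, edgeR adjusted p = 8.25e-08). STARD4 (4.34), ABCA1 (4.05), SREBF1 (1.93) and INSIG2 (1.81) were higher in LOX-IMVI BR, as were LBR, TMEM97, NPC1 and CYP51A1 by 0.68 to 1.17. The exporter gene ABCG1 had no counts in either LOX-IMVI BR control, against 4.15 and 4.8 CPM in A375 controls. It was at least 62.5-fold lower, taking 3 counts over the group (0.0716 CPM) as the limit that a count of 0 allows, for counting error only. TM7SF2 (-2.25), NR1H3 (-2.60), APOE (-2.23) and GGPS1 (-2.20) were among the lower genes.

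In the difference between the lines for 6-thio-dG, 2 of the 44 were called, where 5.54% of all genes were, both with the lower effect in LOX-IMVI BR: SREBF1 (-2.43 ± 0.51, edgeR adjusted p = 0.013) and FNTB (-1.92 ± 0.51, 0.0394). In A375 SREBF1 had 398 and 158 CPM with 6-thio-dG, against 198 and 143 CPM in the control (0.70 ± 0.36, edgeR adjusted p = 0.186). FNTB had 2.42 and 1.95 CPM with 6-thio-dG, against 1.42 and 2.35 CPM in the control of A375 (0.26 ± 0.37, edgeR adjusted p = 0.65). Neither was called in A375. With any 1 of the 6-thio-dG and control libraries of LOX-IMVI BR left out, 0 of the 44 were called lower. Without A375 6-thio-dG replicate 2, 6 were lower and 9 higher, without A375 6-thio-dG replicate 1, 4 lower and 2 higher, and without A375 control replicate 2, 6 lower and 0 higher. For BIBR1532, edgeR called 0 of the 44, of which 7 had an unadjusted p under 0.05, and DESeq2 called 2 higher.

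The members' mean over the 12 libraries, with log2 CPM centred in each line, gave a profile of -0.73 and -0.66 with 6-thio-dG, 0.19 and 0.32 with BIBR1532 and 0.45 and 0.42 in the control of LOX-IMVI BR. In A375 it was -0.28 and -0.14 with 6-thio-dG, 0.03 and 0.07 with BIBR1532 and -0.03 and 0.36 in the control. SQLE was closest to this mean, with a root mean square difference of 0.208 on the log2 scale, and HMGCS1 furthest, at 0.55, where the median of 8939 other well-counted genes was 0.52. Of those genes, the most alike were CAPN2 (0.0913), TMX4 (0.0942), CHEK1 (0.127), CHD1L (0.128) and HDLBP (0.131). All 5 were closer to the mean than any of the 8 members, whose own values make up that mean.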

How the data were processed

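RNA-seq counts were analysed for 12 libraries in 6 groups of 2, by line and treatment. The counts are raw whole numbers per gene, as the authors deposited them in 1 table. Per the labels' protocols, RNA was purified with TRIzol and the TruSeq library kit was not strand-specific. The submitters' processing notes name featureCounts 1.5.1, STAR, Picard and GATK, with hg19 and GRCh37 as builds, but not what each did. Of 75253 rows, 4 with duplicated date-like names were dropped (at most 0.000913% of a library) and 24 date-like rows were kept unnamed. Depth was 11813413 to 25822566 counts per library.

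Genes were filtered with filterByExpr and scaled by TMM, and 1 mean per group was fitted to all 12 libraries with edgeR 4.0.16 (robust quasi-likelihood) in R 4.3.3 with limma 3.58.1. That left 29114 genes, 14439 with symbols and 14675 with NONCODE identifiers, and 6 residual degrees of freedom. Calls needed an adjusted p under 0.05 (Benjamini-Hochberg, over all genes of a comparison). Levels are TMM-scaled CPM, and levels between genes are per kb of the longest coding transcript in GENCODE release 29 (GRCh38), which also gave GC content; no coordinates of the count table were used. Promoter windows are from RefSeq.

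All 8 members were named in every comparison. From each of 5 pathway lists, called genes with the smallest adjusted p were named, with others where counts are spelled out; some listed pathway and marker genes are not reported here and entered no count of their list. The most alike genes were the 5 with the smallest root mean square difference of line-centred log2 CPM (prior count 2) from the members' mean, among symbol genes averaging 10 CPM or more. The members and lists were chosen with earlier results of these data known. Alternatives were the test of DESeq2 1.42.0, its size factors in edgeR, upper-quartile factors, no filter on low counts, a minimum of 1 CPM in 2 libraries, symbol genes only, the libraries of a line alone, a replicate block, removal of the GC trend of each library and leaving out each library in turn, and, chosen after seeing the data, a crossed block in A375.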

Additional observations from a re-analysis of the deposited data

Results flagged for a closer look

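For 3 genes the effect of 6-thio-dG differed between the lines by the test of the difference itself (edgeR quasi-likelihood test, effect in LOX-IMVI BR minus effect in A375), among 8 members and 44 other pathway genes, a share near the 5.54% of all genes called. INSIG1 differed by -2.10 on the log2 scale: its log2 fold change was -1.88 in LOX-IMVI BR and 0.22 in A375. SREBF1 differed by -2.43, with -1.73 in LOX-IMVI BR and 0.70 in A375, and FNTB by -1.92, with -1.66 in LOX-IMVI BR and 0.26 in A375. FNTB levels were low, in LOX-IMVI BR 0.842 and 1.17 CPM with 6-thio-dG, against 2.96 and 3.46 CPM in the control.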

How the results depend on the processing

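Over the 9 comparisons, the log2 fold changes of the 8 members kept their direction and side of the threshold in 579 of the values under alternative settings, lost the call in 16 and gained it in 45, and none turned round. With 1 library left out, 299 kept it, 33 lost the call, 17 gained it and 3 turned round, all without A375 6-thio-dG replicate 2: IDI1 with 6-thio-dG against control in A375 (-0.85, against 0.06 with all libraries), HMGCS1 between the compounds in A375 (-1.04, against 0.46) and HMGCS1 in the difference between lines for 6-thio-dG (1.31, against -0.17). Without A375 6-thio-dG replicate 1 the same values were 0.60, 1.15 and -0.89. A direction was compared where the value or its alternative passed the threshold. INSIG1 with 6-thio-dG in LOX-IMVI BR was called in all 13 alternatives, between -1.92 and -1.63.

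Counts of all genes called moved by more than 1.5 times as follows. With symbol genes only, fewer genes are tested, and the counts were 2243 (6-thio-dG) and 534 (BIBR1532) in LOX-IMVI BR, 2666 between the compounds there, 2770 and 2169 in A375, 2228 between the compounds there, 587 for the difference in BIBR1532 effect and 7896 for the controls. In the line alone they were 15119 (6-thio-dG), 10802 (BIBR1532) and 16112 (between compounds) in LOX-IMVI BR and 1227, 924 and 1604 in A375. Without a low-count filter they were 2507 for the difference in 6-thio-dG effect and 3002 for that in BIBR1532 effect. With DESeq2 the count was 2076 for the BIBR1532 difference. Removal of the GC trend was fitted on symbol genes with a GC value only, so fewer genes are tested there too. It gave 2639 and 2037 for the 6-thio-dG and BIBR1532 differences and 8846 for the controls. The cause was not tested in any setting, also where fewer genes or samples entered.

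Counts of members called moved by more than 1.5 times in these cases. With 6-thio-dG in LOX-IMVI BR, 3 were lower with upper-quartile factors and 8 in the line alone. With BIBR1532 there, 5 were lower and 1 higher in the line alone and 1 was lower with the GC trend removed. Between the compounds there, 1 was lower with upper-quartile factors, 2 with symbol genes only and 8 in the line alone. With 6-thio-dG in A375, 2 were lower without a low-count filter, and 2 lower and 1 higher with the GC trend removed. With BIBR1532 in A375, 0 were higher in the line alone, and 1 was lower without the filter and 1 with the GC trend removed. Between the compounds in A375, 1 was lower with DESeq2 size factors, 2 with the DESeq2 test, 2 without the filter, 2 at 1 CPM in 2 libraries, and 1 lower and 1 higher with the GC trend removed. In the difference for 6-thio-dG, 2 were lower with DESeq2, 2 with symbol genes only and 3 with the GC trend removed, and for BIBR1532, 1 was lower with DESeq2, without the filter, at 1 CPM and with symbol genes only, and 2 with the GC trend removed. Single calls moved too: FDPS with 6-thio-dG in LOX-IMVI BR was lost with DESeq2 size factors, at 1 CPM and with symbol genes only, and between the controls SREBF2 was gained in 4 settings and HMGCS1 lost at 1 CPM (adjusted p = 0.054).

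Replicate numbers were checked for pairing. The correlation over 12145 genes of replicate 1 minus replicate 2 was -0.0257, 0.031 and 0.032 between groups of LOX-IMVI BR and -0.14, -0.319 and 0.748 between those of A375, so not every pair was over 0.1 and the numbers were not taken to pair the libraries, although those of 6-thio-dG and BIBR1532 in A375 deviated together (0.748). With the replicate block, 0 members were higher with BIBR1532 in A375 (INSIG1, adjusted p = 0.0592), and 2 were lower between the compounds in LOX-IMVI BR. FDPS with 6-thio-dG in LOX-IMVI BR lost its call (0.0899). With the control numbers of A375 exchanged in the block, a setting chosen after seeing the data, 1 member was lower with 6-thio-dG, with 3044 genes called higher and 3215 lower.

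Leaving out 1 library gave, for all genes called, 1550 to 1864 (6-thio-dG), 209 to 402 (BIBR1532) and 2447 to 2770 (between compounds) in LOX-IMVI BR, 4461 to 10233, 937 to 5272 and 1673 to 8103 in A375, 475 to 6808 and 142 to 2268 for the differences between lines in 6-thio-dG and BIBR1532 effect, and 10264 to 13673 for the controls. Members called lower ranged from 1 to 2 with 6-thio-dG and between the compounds in LOX-IMVI BR, from 0 to 3 with 6-thio-dG in A375 and in the 6-thio-dG difference, from 0 to 2 between the compounds in A375, and from 0 to 1 in the BIBR1532 difference and the controls. Members called higher ranged from 0 to 1 with BIBR1532 in A375 and in the 6-thio-dG difference, from 0 to 2 between the compounds in A375, and from 4 to 5 in the controls. A lone library in such fits is assumed to vary like the other groups.

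Upper-quartile factors moved the median of all genes to 0.28 from 0.05 with 6-thio-dG in LOX-IMVI BR, where the members' median was -0.84, and to 0.43 from 0.03 in A375, where it was 0.04. They put the higher genes among those called at 73.5% and 80%, against 57.8% and 54.6% with TMM, at 66.4% against 53.8% with BIBR1532 in A375, at 60.1% against 45.3% between the compounds in A375, at 69.5% against 48% in LOX-IMVI BR and at 38.1% against 57.5% in the BIBR1532 difference. With the GC trend removed, and only symbol genes tested, it was 38% with 6-thio-dG and 42.8% with BIBR1532 in A375. In LOX-IMVI BR it was 63.5%, against 80.8%, with BIBR1532, and in the 6-thio-dG difference 57.4%, against 44.7%. Settings other than scaling moved it as well: with 6-thio-dG in A375 it was 33% without a low-count filter and 39.4% with DESeq2, and in the 6-thio-dG difference 67.1% without the filter.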
